A study of Homo sapiens with 9 samples.

Results

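To investigate how transcripts of the actin cytoskeleton moved during heat stress and recovery, 10 genes were followed among the 60664 genes of the deposited count table. They were the cytoplasmic actins ACTB and ACTG1, the actin monomer-binding proteins CFL1 and PFN1, the cross-linkers and adhesion proteins ACTN1, ACTN4, FLNA and VCL, the tropomyosin gene TPM1, and SRF, which encodes serum response factor. The genes were chosen by name, with earlier results of these data known, and each Ensembl gene identifier was matched to its symbol. All 10 passed the filter on low counts.

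HEK293T is a human embryonic kidney cell line that carries the SV40 large T antigen. The cells had been heated at 43°C for 1 h (H1), or heated likewise and then given 1 h (H1R1), 6 h (H1R6) or 18 h (H1R18) of recovery at 37°C, and were set against untreated cells kept at 37°C (NC). All groups were the same line in the same serum-containing medium, and the labels name no genetic change in any. Total RNA was sequenced after removal of ribosomal RNA, in 2 libraries each for H1, H1R1, H1R6 and NC and in 1 for H1R18. Whether both libraries of a condition stem from separate cultures is not stated, so p-values measure the spread between these libraries, which may be technical. For H1R18 the spread was taken from the other conditions.

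Actin monomers (G-actin) assemble into filaments (F-actin), and the balance between both forms is read by SRF. Coactivators of the MRTF family bind G-actin, are released when monomers are used up, and then switch on SRF target genes, among which are actins and many of their binding proteins. SRF also works with ternary complex factors of the ELK family on immediate early genes such as FOS and EGR1. SRF binds a DNA element named the CArG box, which is CC followed by 6 bases of A or T and then GG.

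Promoter windows (250 bases before to 50 after a start) were taken from a table of RefSeq starts on GRCh38.p14, and 14 windows of 9 of the 10 genes were searched. The promoter of ACTB was not analysed here. A CArG box was found in 4 of these windows, each in a different gene (ACTG1, ACTN1, FLNA and SRF), against 1.29% of all 35116 windows. The pattern reads alike on both strands. These genes were chosen as known or likely SRF targets, so the difference in share is a description and was given no test. SRF held 2 boxes, at positions -30 to -21 and -10 to -1 from the start, a number reached by 0.0313% of all windows. ACTG1 and FLNA each held 1 box at -94 to -85, and ACTN1 held 1 at -171 to -162 of 1 of its 4 windows. A stretch that misses the pattern by 1 base was found in 4 of the 14 windows (SRF, ACTN1 and both windows of ACTN4), against 17.9% of all windows. For CFL1, PFN1, VCL and TPM1 neither was in the window searched. The 150 bases before the start are given for SRF, ACTG1 and FLNA, and 30 bases around the box for ACTN1, with the CArG boxes in capitals, since these are the places where the element studied here could be read.
SRF, plus strand, chr6:43171119-43171268: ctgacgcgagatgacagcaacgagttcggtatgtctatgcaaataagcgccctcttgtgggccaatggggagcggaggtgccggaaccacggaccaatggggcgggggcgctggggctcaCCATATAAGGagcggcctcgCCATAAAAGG
ACTG1, minus strand, chr17:81512800-81512949: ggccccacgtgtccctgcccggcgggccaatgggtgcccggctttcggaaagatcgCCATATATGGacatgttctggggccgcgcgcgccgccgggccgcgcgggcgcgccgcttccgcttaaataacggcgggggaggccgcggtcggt
FLNA, minus strand, chrX:154374635-154374784: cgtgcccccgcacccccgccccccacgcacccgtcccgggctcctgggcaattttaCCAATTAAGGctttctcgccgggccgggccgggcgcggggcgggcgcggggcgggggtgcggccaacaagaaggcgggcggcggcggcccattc
ACTN1, minus strand, chr14:68977717-68977746: cgctcatgtCCAAAAATGGtaacattcatt

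Libraries held 3814195 to 6221613 counts, with each read of a pair counted, and the 10 genes took 0.631% to 0.744% of them. DNAJB1 and HSPH1, heat shock genes used to check the labels, had log2 fold changes of 4.74 and 3.68 at H1 against NC. Of 7 kidney-lineage and HEK293 genes, SALL1, CDH2, KRT8, KRT18, PAX2 and EYA1 were detected in every library and LHX1 had 0 to 2 counts. Defining genes of blood (PTPRC), endothelium (PECAM1), smooth muscle (MYH11) and liver (ALB) had 0 to 5 counts in every library and DES, a muscle filament gene, 2 to 12, while COL1A1, a fibroblast collagen, lay between 44.0 and 64.2 CPM. Of the 6 detected genes of the line, 1 was called higher at H1, H1R1 and H1R6 (SALL1, log2 fold change against NC 1.16 at H1R1), 2 were called lower at H1R1 (PAX2 and KRT8) and 2 at H1R6 (PAX2 and CDH2), against 9.53% and 4.03% of all genes, and none was called at H1R18. DESeq2 called 0 of these 6 genes at H1, 1 higher and 0 lower at H1R1, and 1 higher and 1 lower at H1R6. The part of such shifts in the results was not tested. A bulk measurement cannot tell less RNA per cell from fewer cells.

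Levels are given as TMM-normalised CPM (read counts scaled to a common library total). Per kilobase of the deposited gene length, ACTG1 had the highest level in NC with 644 ± 18.0 CPM per kb, and ACTB followed with 413 ± 24.1 (SD, n = 2 libraries here and in the rest of this paragraph). PFN1 (154 ± 9.38), FLNA (76.9 ± 2.54), CFL1 (54.8 ± 0.767) and ACTN4 (43.2 ± 4.95) came next. VCL (22.9 ± 0.859), SRF (19.3 ± 1.32), ACTN1 (11.1 ± 0.137) and TPM1 (2.67 ± 0.478) were lowest. The NC libraries of neighbours in this order did not overlap. At H1R1, the levels of SRF and VCL overlapped and SRF had the higher mean (23.0 against 21.6 CPM per kb). The deposited lengths sum all annotated exons and exceed the principal transcript by far for TPM1 (13765 against 1049 bases) and ACTN1 (14320 against 3779 bases). With the principal transcript's length, ACTG1, ACTB and PFN1 stayed at ranks 1 to 3, whereas TPM1 and ACTN1 stood at ranks 9 and 7 and SRF at 10.

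**Figure D1:**
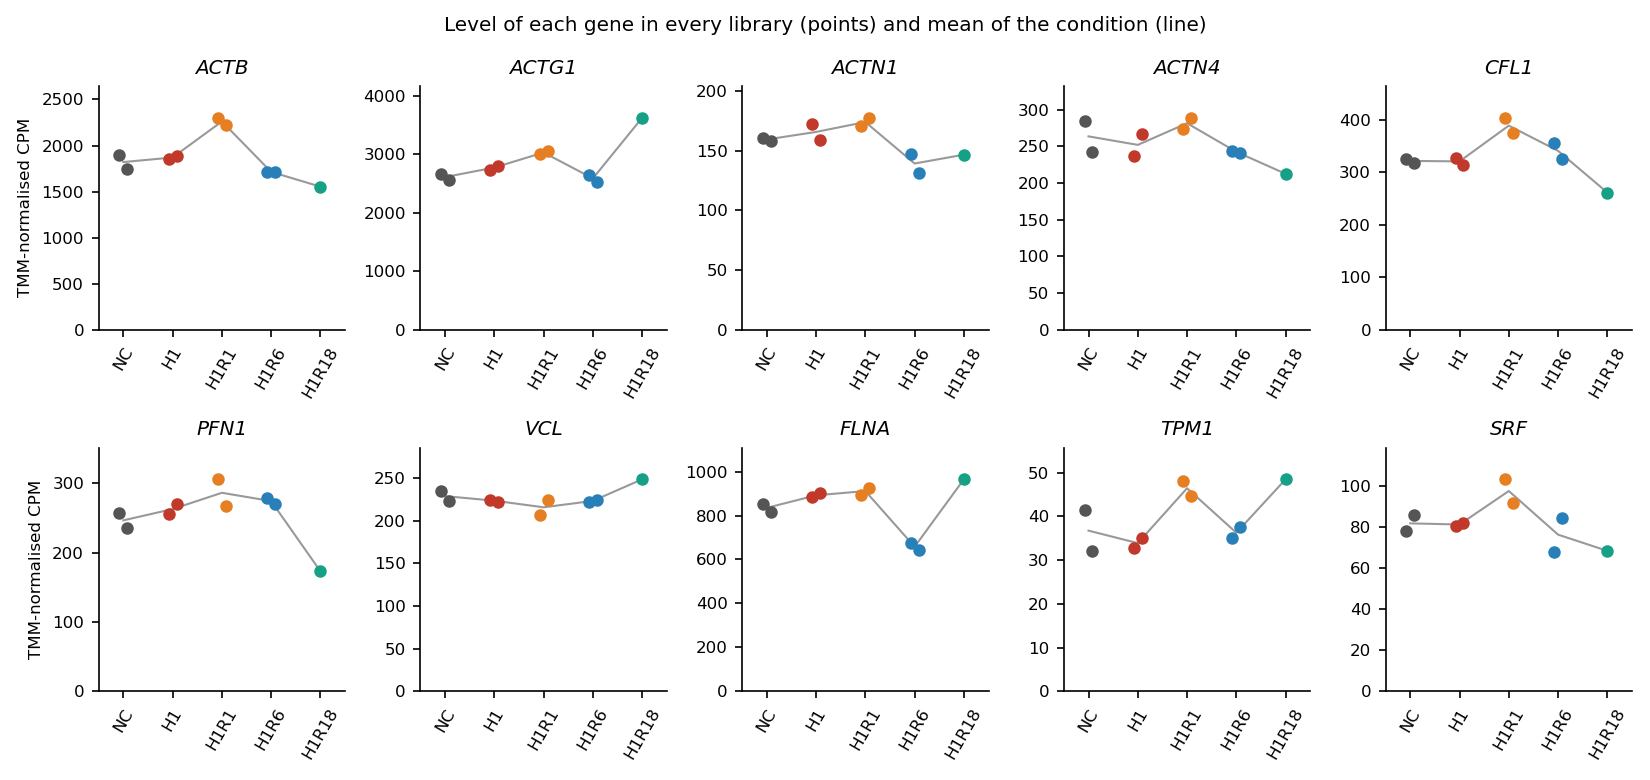
Level of each of the 10 genes (vertical axis, TMM-normalised CPM, from 0) in every library (points) by condition (horizontal axis) and their mean (line). ACTB is highest at H1R1 (2301 and 2221 CPM), ACTG1 in the H1R18 library (3623 CPM), and FLNA lowest at H1R6 (675 and 641 CPM).

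SRF (ENSG00000112658, chromosome 6, 43171269 to 43181506, plus strand of GRCh38) is the transcription factor of the group. It measured 77.7 and 85.6 CPM in the NC libraries, 80.4 and 81.8 CPM right after heating (H1), 103 and 91.7 CPM by H1R1, 67.8 and 84.5 CPM by H1R6 and 68.3 CPM in the H1R18 library. Both H1R1 libraries lay above both NC libraries, and the H1R6 libraries overlapped those of NC. Its log2 fold change against NC was 0.26 at H1R1 (SE 0.11, adjusted p = 0.105, edgeR's quasi-likelihood test), -0.01 at H1 (SE 0.11), -0.10 at H1R6 (SE 0.11) and -0.25 at H1R18 (SE 0.15), and none passed the threshold of 0.05. SRF fell at H1R6 relative to H1R1 (log2 fold change -0.36, SE 0.11, adjusted p = 0.0258). This call was lost in 6 of its alternative analyses, among them that without H1R6 replicate 1, in which the adjusted p was highest (range 0.0153 to 0.421).

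ACTB (ENSG00000075624, chromosome 7, 5526409 to 5563902, minus strand) encodes beta-actin, the isoform enriched at the leading edge of moving cells. It measured 1895 and 1745 CPM in the NC libraries, 1854 and 1886 CPM right after heating (H1), 2301 and 2221 CPM by H1R1, 1709.8 and 1718 CPM by H1R6 and 1553 CPM in the H1R18 library. The H1R1 libraries were the highest and the H1R18 library the lowest of all. The rise of ACTB at H1R1 had a log2 fold change of 0.31 against NC (SE 0.05, adjusted p = 4.64e-05) and of 0.27 against H1 (adjusted p = 0.000549, SE 0.05). It then fell at H1R6 relative to H1R1 (log2 fold change -0.40, SE 0.05, adjusted p = 1.49e-06). At H1R18 it was lower than in NC, the log2 fold change being -0.23 (SE 0.06, adjusted p = 0.0185), a call that was lost in 4 alternatives, among them those without NC replicate 1 and without H1 replicate 2 (adjusted p 0.00805 to 0.170 over all alternatives).

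ACTG1 (ENSG00000184009, chromosome 17, 81509413 to 81523847, minus strand) encodes gamma-actin, the second cytoplasmic isoform. It measured 2661 and 2558 CPM in the NC libraries, 2738 and 2807 CPM right after heating (H1), 3011 and 3048 CPM by H1R1, 2641 and 2533 CPM by H1R6 and 3623 CPM in the H1R18 library. The H1R1 libraries lay above those of NC and H1, the H1R6 libraries overlapped NC, and the H1R18 library was the highest of all 9. ACTG1 rose at H1R1 (log2 fold change against NC 0.22, SE 0.05, adjusted p = 0.000948) and fell by 0.23 at H1R6 relative to H1R1 (SE 0.05, adjusted p = 0.000708). Its log2 fold change at H1R18 was 0.47 against NC (SE 0.06, adjusted p = 3.61e-07) and 0.49 against H1R6 (SE 0.06, adjusted p = 1.96e-07). These calls held in every alternative run.

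ACTB and ACTG1 stood on opposite sides of NC at H1R18. The ratio of ACTB to ACTG1, in CPM per kb, came to 0.655 and 0.628 in the NC libraries, 0.623 and 0.618 right after heating, 0.703 and 0.670 by H1R1, 0.596 and 0.624 by H1R6 and 0.394 in the H1R18 library. Over the first 4 conditions the ratio stayed between 0.596 and 0.703, and the H1R18 library lay below all of them. With 1 library at H1R18 the ratio itself was given no test. Reads that align to several places were not counted, which matters for actins with their many pseudogenes. Of the 100-base windows of the principal transcript, 0.165% for ACTB (shared with ACTBP2) and 0% for ACTG1 were found unaltered in a transcript of another GENCODE 29 gene, and no other annotated exon overlapped either gene.

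**Figure D2:**
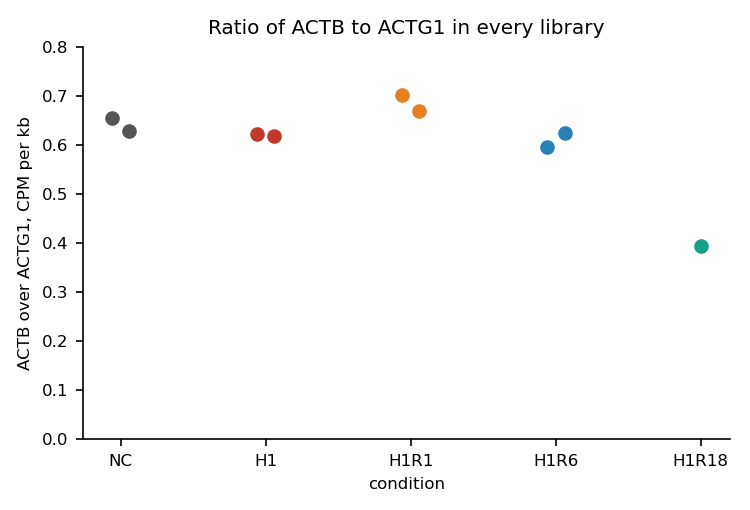
Ratio of ACTB to ACTG1 in CPM per kb of the deposited gene length (vertical axis, from 0) in every library (points) by condition. The 8 libraries of NC, H1, H1R1 and H1R6 lie between 0.596 and 0.703, and the H1R18 library lies at 0.394.

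CFL1 (ENSG00000172757, chromosome 11, 65823022 to 65862026, minus strand) encodes cofilin, which severs actin filaments. It measured 324 and 318 CPM in the NC libraries, 326 and 314 CPM right after heating (H1), 403 and 373 CPM by H1R1, 356 and 325 CPM by H1R6 and 261 CPM in the H1R18 library. The H1R1 libraries were the highest and the H1R18 library the lowest. The rise of CFL1 at H1R1 had a log2 fold change of 0.27 against NC (SE 0.07, adjusted p = 0.00801) and of 0.28 against H1 (SE 0.07, adjusted p = 0.0117). At H1R18 it was below H1R6 (log2 fold change -0.38, SE 0.09, adjusted p = 0.00520) and below NC (log2 fold change -0.30, SE 0.09, adjusted p = 0.0361). The rise against NC was lost without H1R1 replicate 1 (adjusted p 0.00592 to 0.119 over the alternatives), that against H1 without either H1 library or H1R1 replicate 1 (up to 0.186), the fall against H1R6 without H1R6 replicate 1 (0.0619), and the fall against NC in 13 alternatives (0.0214 to 0.144). Exons of MUS81 and SNX32 on the opposite strand covered 19.0% of the exon bases of CFL1. Counting was without strand, and reads that matched several genes there were left out.

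PFN1 (ENSG00000108518, chromosome 17, 4945652 to 4949061, minus strand) encodes profilin, which loads actin monomers onto growing filaments. It measured 257 and 236 CPM in the NC libraries, 256 and 270.2 CPM right after heating (H1), 306 and 267 CPM by H1R1, 279 and 269.8 CPM by H1R6 and 173 CPM in the H1R18 library. The H1R18 library lay below the other 8, which ranged from 236 to 306 CPM. PFN1 fell at H1R18, both against NC (log2 fold change -0.51, SE 0.11, adjusted p = 0.00122) and against H1R6 (-0.66, SE 0.11, adjusted p = 4.02e-05), and both calls held in every alternative. At H1R1 its log2 fold change against NC was 0.22 (SE 0.08) and did not pass (adjusted p = 0.0587), though it passed in 3 alternatives (0.0196 to 0.501 over all). ENO3 on the opposite strand overlapped 5.59% of its exon bases, and 4.11% of its windows were shared with ENO3 or PFN1P1.

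FLNA (ENSG00000196924, chromosome X, 154348524 to 154374634, minus strand) encodes filamin A, which cross-links actin filaments and ties them to membrane receptors. It measured 855 and 816 CPM in the NC libraries, 884 and 901 CPM right after heating (H1), 896 and 928 CPM by H1R1, 675 and 641 CPM by H1R6 and 965 CPM in the H1R18 library. The H1R6 libraries lay below all others. FLNA fell at H1R6, both against NC (log2 fold change -0.34, SE 0.06, adjusted p = 0.000308) and against H1R1 (-0.47, SE 0.06, adjusted p = 1.29e-06). It rose again at H1R18 relative to H1R6 (log2 fold change 0.55, SE 0.07, adjusted p = 2.76e-06). All 3 calls held in every alternative. Against NC, the log2 fold change of the H1R18 library was 0.21 (SE 0.07, adjusted p = 0.0670), which passed in 9 alternatives (0.0204 to 0.154 over all).

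ACTN1 (ENSG00000072110, chromosome 14, 68874128 to 68979440, minus strand) and ACTN4 (ENSG00000130402, chromosome 19, 38647649 to 38731589, plus strand) encode the non-muscle alpha-actinins, which bundle filaments in stress fibres and adhesions. ACTN1 measured 161 and 158 CPM in the NC libraries, 173 and 159 CPM right after heating (H1), 171 and 178 CPM by H1R1, 147 and 131 CPM by H1R6 and 147 CPM in the H1R18 library. ACTN1 fell at H1R6 relative to H1R1 (log2 fold change -0.32, SE 0.09, adjusted p = 0.0112). This call was lost without H1R1 replicate 2, without H1R6 replicate 2 and with scaling to library size only (adjusted p 0.0116 to 0.215 over the alternatives). No comparison of ACTN1 with NC passed. ACTN4 measured 285 and 242 CPM in the NC libraries, 237 and 267 CPM right after heating (H1), 274 and 289 CPM by H1R1, 243 and 241 CPM by H1R6 and 212 CPM in the H1R18 library. ACTN4 passed in no comparison, and its log2 fold change was farthest from 0 at H1R18 against NC (-0.31, SE 0.11, adjusted p = 0.0559), which passed without the filter on low counts and without NC replicate 2 (0.0146 to 0.381 over the alternatives). Of its windows, 12.9% were shared with ACTN4P1 or CAPN12, and CAPN12 on the opposite strand overlapped 14.2% of its exon bases.

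VCL (ENSG00000035403, chromosome 10, 73995193 to 74121363, plus strand) encodes vinculin, which links actin to integrin and cadherin adhesions. It measured 235 and 223 CPM in the NC libraries, 224 and 222 CPM right after heating (H1), 206 and 225 CPM by H1R1, 222 and 224 CPM by H1R6 and 248 CPM in the H1R18 library. VCL passed in no comparison, and its log2 fold changes against NC lay between -0.09 at H1R1 (SE 0.08) and 0.12 at H1R18 (SE 0.10). Exons of AP3M1 on the opposite strand overlapped 11.1% of its exon bases. TPM1 (ENSG00000140416, chromosome 15, 63042632 to 63071915, plus strand) encodes a tropomyosin, which lies along filaments and governs access to them. It measured 41.4 and 32.1 CPM in the NC libraries, 32.8 and 35.0 CPM right after heating (H1), 48.1 and 44.8 CPM by H1R1, 35.0 and 37.5 CPM by H1R6 and 48.5 CPM in the H1R18 library. TPM1 rose at H1R1 relative to H1 (log2 fold change 0.46, SE 0.15, adjusted p = 0.0474), a call lost in 11 alternatives, including each that left out an H1, H1R1 or H1R6 library (0.0302 to 0.261 over all). Its comparisons with NC did not pass, and TPM1-AS and AC079328.2 on the opposite strand overlapped 21.4% of its exon bases.

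Across the 10 genes, edgeR called none at H1 against NC, where none had an unadjusted p under 0.05 and DESeq2 also called 0. Their median log2 fold change was 0.02 there, against -0.01 over all tested genes, and 3.43% of the 21139 tested genes were called higher and 1.77% lower. At H1R1, 3 of 10 were called higher (ACTB, ACTG1 and CFL1) and none lower, against 10.7% and 9.53% of all genes. With scaling to library size only, all genes split into 1821 higher and 2487 lower at H1R1, against 2254 and 2015 with TMM. The median of the 10 genes was 0.22 and that of all genes -0.01, and 9 of the 10 had a positive log2 fold change, VCL being the exception. For 8 of them both H1R1 libraries lay above both NC libraries, as for 28.6% of all genes.

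At H1R6, 1 of the 10 genes was called lower than in NC (FLNA) and none higher, against 4.03% and 3.0% of all genes. The median of the 10 genes was -0.06. At H1R18, 1 was called higher (ACTG1) and 3 lower (ACTB, CFL1 and PFN1), against 4.58% and 6.43%, and the median was -0.17 against -0.03 over all genes. The calls of ACTB and CFL1 were both lost with only the conditions compared in the fit, without H1 replicate 2, without NC replicate 1, and with at least 10 counts required in every library. The count was 2 under the first and second of these settings and 3 under the others, where FLNA was called higher. Fold changes also ran weakly with transcript properties, given as a description over 9670 genes whose average log2 CPM reached 4. The Spearman correlation of the log2 fold change against NC with the length of the longest transcript was 0.113 at H1, -0.0439 at H1R1, -0.0373 at H1R6 and 0.134 at H1R18. With its GC content it was -0.0712 at H1, -0.118 at H1R1, -0.106 at H1R6 and 0.0554 at H1R18. The part of length and GC content in the values of the 10 genes was not tested.

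Between successive times, 3 of 10 genes were called higher at H1R1 than at H1 (ACTB, CFL1 and TPM1) and none lower, against 6.35% and 5.08% of all genes. Without H1 replicate 1, H1 replicate 2 or H1R1 replicate 1 the count was 1. At H1R6, 5 were called lower than at H1R1 (ACTB, ACTG1, ACTN1, FLNA and SRF) and none higher, against 8.93% and 6.43%. Their count was 3 with scaling to library size only, under which all genes split into 1946 higher and 1177 lower, against 1360 and 1888 with TMM. For H1R1 against H1 that scaling gave 1028 higher and 1342 lower, against 1343 and 1074. At H1R18, 2 were called higher (ACTG1 and FLNA) and 2 lower (CFL1 and PFN1) than at H1R6, against 6.28% and 7.65%. These comparisons share libraries with those against NC and with each other.

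**Figure D3:**
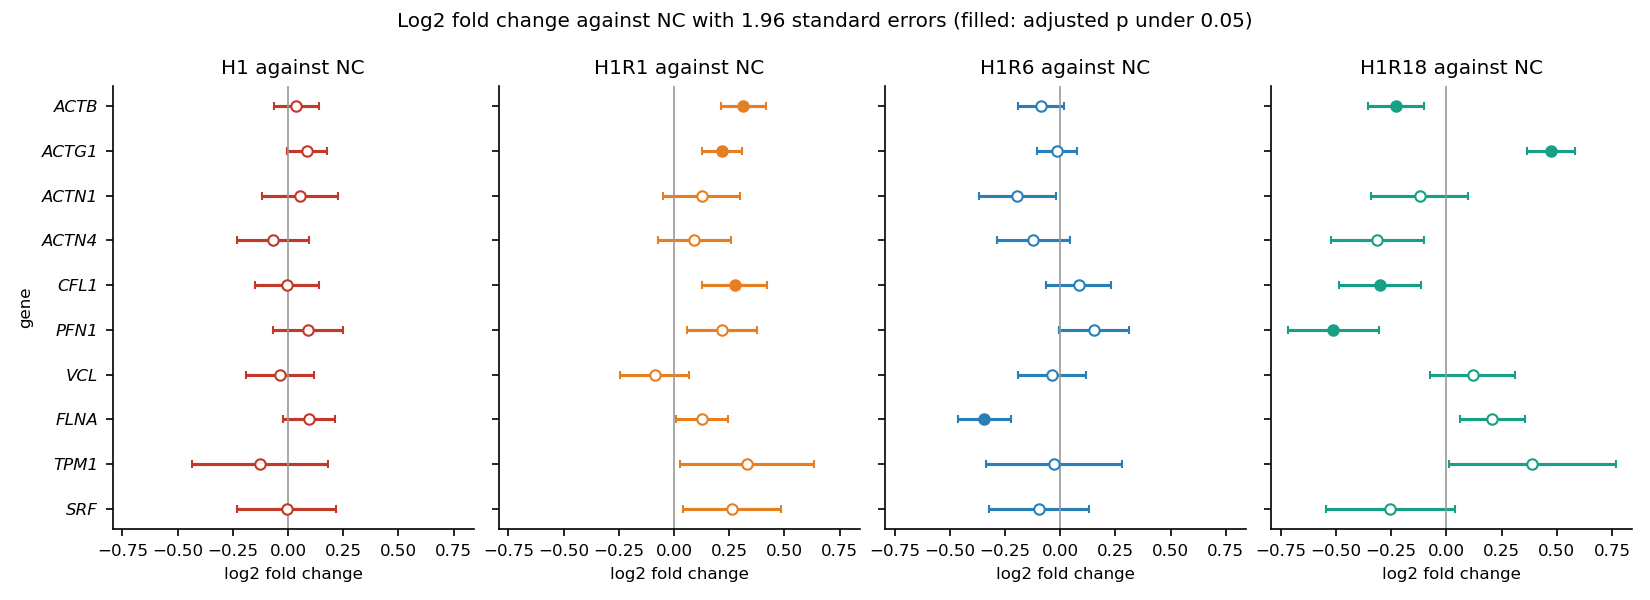
Log2 fold change against NC (horizontal axis) of each of the 10 genes (rows) at H1, H1R1, H1R6 and H1R18 (panels), with bars of 1.96 standard errors on each side and filled points for an adjusted p under 0.05. At H1R1 9 of 10 points lie right of 0, while at H1R18 ACTG1 lies at 0.47 and PFN1 at -0.51.

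Levels of some members ran together over the 9 libraries. As a description, with no test, Pearson's r of log2 CPM was 0.88 for CFL1 and PFN1, 0.83 for ACTB and SRF and 0.02 for ACTB and ACTG1, and -0.87 for PFN1 and VCL. For SRF, r ran from -0.73 with VCL to 0.83 with ACTB. With the other genes that held a CArG box, r of SRF was -0.11 for ACTG1, 0.20 for FLNA and 0.48 for ACTN1. Among 11737 genes whose average log2 CPM reached 3, those with the pattern most like that of SRF were KIDINS220 (r = 0.973), GNAQ (0.963), ME2 (0.951), SFXN1 (0.945) and FH (0.944). Those most like ACTB were HIVEP1 (0.988), PDE4D (0.983), EMILIN2 (0.972), PDIA3 (0.969) and BMPR2 (0.968). Libraries of a condition share their treatment, so the 9 points are not independent.

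Genes of SRF cofactors were followed in the same libraries. All 5 cofactor genes listed (MRTFA, MRTFB, ELK1, ELK3 and ELK4) were tested, and at H1 none was called by edgeR or DESeq2 and none had an unadjusted p under 0.05. MRTFA, a G-actin-binding coactivator, had 73.0 and 75.0 CPM at H1R1 against 56.7 and 50.4 in NC, the log2 fold change being 0.46 (adjusted p = 0.00558, SE 0.12), and was also higher at H1R6 (0.47, SE 0.12, adjusted p = 0.0104). MRTFB, its paralog, went the other way at H1R1, with 50.8 and 52.3 CPM against 75.5 and 72.5 in NC (log2 fold change -0.52, SE 0.12, adjusted p = 0.00161). ELK4, a ternary complex factor, measured 118 and 108 CPM in the NC libraries, 107 and 111 CPM right after heating (H1), 131 and 126 CPM by H1R1, 158 and 166 CPM by H1R6 and 309 CPM in the H1R18 library. ELK4 rose at H1R6 (log2 fold change against NC 0.51, SE 0.09, adjusted p = 0.000226) and at H1R18 (1.45, SE 0.10, adjusted p = 6.70e-12).

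Of 9 tested immediate early genes, the targets that SRF shares with ternary complex factors, 4 were called higher at H1 than in NC (FOS, EGR1, IER2 and MCL1), against 3.43% of all genes. This list, like the others, was chosen with earlier results of these data known, so the difference in share is a description only. FOS, a subunit of the AP-1 transcription factor, measured 20.2 and 27.7 CPM in the NC libraries, 76.8 and 57.4 CPM right after heating (H1), 24.9 and 23.9 CPM by H1R1, 12.7 and 19.8 CPM by H1R6 and 2.57 CPM in the H1R18 library. Against NC its log2 fold change was 1.50 at H1 (SE 0.19, adjusted p = 2.92e-06) and -3.19 at H1R18 (SE 0.43, adjusted p = 3.84e-06), where its count was 10. EGR1, a zinc finger transcription factor, had 48.5 and 48.6 CPM at H1 and 4.11 in the H1R18 library, against 18.8 and 29.7 in NC. Its log2 fold changes were 1.02 at H1 (SE 0.19, adjusted p = 0.000869) and -2.54 at H1R18 (SE 0.38, adjusted p = 2.04e-05). At H1R1 and at H1R6, MCL1 was called higher and FOSB lower than in NC, and at H1R18 4 were called lower (FOS, FOSB, EGR1 and MCL1), against 6.43% of all genes. DESeq2 gave the same counts for this list at each time. MCL1, an anti-apoptotic BCL-2 family member, was highest at H1R1, with 451 and 445 CPM against 193 and 204 in NC (log2 fold change 1.17, SE 0.08, adjusted p = 3.20e-13).

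Of 24 further genes listed as cytoskeletal and adhesion targets of MRTF and SRF, all were tested. Whether MRTF or SRF acted on them here was not tested. CCN1, a secreted matricellular protein, and ANKRD1, a nuclear ankyrin-repeat protein, were called higher at H1, and with CCN2 and CAP1 also at H1R1, against 3.43% and 10.7% of all genes. DESeq2 called 2 higher at H1 and 3 at H1R1. By edgeR, 22 of the 24 were not called at H1, and 13 log2 fold changes were positive and 11 negative. CCN1 had 43.1 and 51.6 CPM at H1 against 13.1 and 15.1 in NC (log2 fold change 1.76, SE 0.20, adjusted p = 2.13e-07). ANKRD1 had 14 and 20 counts after heating and 91 and 53 by H1R1, against 2 and 0 in NC, too few for a fold (adjusted p = 0.00466 at H1 and 1.07e-07 at H1R1). The genes called lower were PDLIM7 at H1R1 and at H1R6 (log2 fold change -0.30 and -0.41), TAGLN at H1R6 (-1.14) and CAP1 at H1R18 (-0.37). Of all genes, edgeR called 9.53% lower at H1R1, 4.03% at H1R6 and 6.43% at H1R18. DESeq2 called none of the 24 lower at H1R1, H1R6 or H1R18. The most abundant of the list, MYH9, TLN1 and TAGLN2, were not called against NC. Of the 5 muscle and other actins listed, ACTA1 alone passed the filter. ACTA1, skeletal muscle actin, had 55 and 30 counts after heating and 50 and 28 by H1R1, against 0 and 6 in NC (adjusted p = 0.00117 and 0.000366), and 20 and 12 at H1R6 and 4 at H1R18 (not called).

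Of 10 tested paralogs of the 10 genes, ACTN2 was called lower at H1 (log2 fold change -1.12, SE 0.16, adjusted p = 1.66e-05) and at H1R1 (-0.91) and higher at H1R18 (0.59). FLNC was higher at H1R1 (0.27) and H1R18 (0.57, SE 0.11, adjusted p = 0.000828). TPM3 was higher at H1R1 (0.27) and lower at H1R18 (-0.46), and CFL2 was higher at H1R1 (0.49) and H1R6 (0.45). At H1R18, TPM2 (1.14) was called higher and DSTN (-0.56) lower. Of the 10 paralogs, 3 were called higher and 2 lower both at H1R1 and at H1R18 by edgeR, whereas DESeq2 called 2 higher and 1 lower at H1R1 and 1 higher and 2 lower at H1R18. By edgeR, 10.7% of all genes were called higher and 9.53% lower at H1R1, and 4.58% and 6.43% at H1R18.

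Of 12 genes of the ARP2/3 complex, which nucleates branched filaments, and of capping protein, which closes filament ends, 3 were called higher at H1R1 (ARPC2 0.35, ARPC4 0.56 and ARPC5L 0.73 on the log2 scale), against 10.7% of all genes, and DESeq2 called 2. At H1R18 ARPC4 (-1.21) and CAPZA1 (-0.49) were lower and CAPZB (0.39) higher, against 6.43% and 4.58% of all genes. None was called at H1 or H1R6 by edgeR or DESeq2, and none had an unadjusted p under 0.05 there. Of 25 actin regulators, 2 were called higher and 1 lower at H1, against 3.43% and 1.77% of all genes, while DESeq2 called 1 higher and 0 lower. RHOB, a stress-inducible small GTPase, had 254 and 255 CPM after heating and 214 and 271 by H1R1, against 99.1 and 101 in NC (log2 fold change 1.35 at H1, SE 0.10, adjusted p = 9.81e-12). SSH2, a cofilin phosphatase, was higher at H1 (0.38, SE 0.10, adjusted p = 0.0248) and H1R1 (0.67, SE 0.10, adjusted p = 1.32e-05). At H1, DESeq2 called at most 1 of RHOB and SSH2. VASP, which promotes filament growth, was lower at H1 (-0.52), a call that DESeq2 did not make. At H1R1, 6 were higher (RHOB, SSH2, FMNL2, TMSB10, CTTN and RHOA) and 2 lower, against 10.7% and 9.53% of all genes, and DESeq2 called 4 higher and 2 lower. Those lower were LIMK2, which phosphorylates cofilin (log2 fold change -0.69), and SSH1, a cofilin phosphatase like SSH2 (-0.44). ENAH, DIAPH1 and ACTR2, among the most abundant of these lists, were not called against NC. At H1R6 edgeR and DESeq2 called no regulator, and 4 had an unadjusted p under 0.05. At H1R18, FMNL2 (0.47), WASF2 (0.51) and RHOA (0.27) were higher and WASL (-0.59) lower, against 4.58% and 6.43% of all genes. At H1, H1R1, H1R6 and H1R18, in this order, the median log2 fold change against NC was -0.01, -0.01, -0.01 and -0.03 over all genes. It was 0.51, 0.04, 0.08 and -0.52 over the immediate early genes and 0.07, 0.18, 0.22 and 0.05 over the cofactors. The paralogs had medians of 0.08, 0.22, 0.06 and 0.11, and the adhesion targets 0.01, 0.10, 0.01 and -0.12. Those of ARP2/3 and capping genes were -0.02, 0.16, -0.03 and -0.16, and those of the regulators 0.05, 0.12, -0.02 and 0.01. For genes outside the 10, overlap with other annotated genes was not examined.

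**Figure D4:**
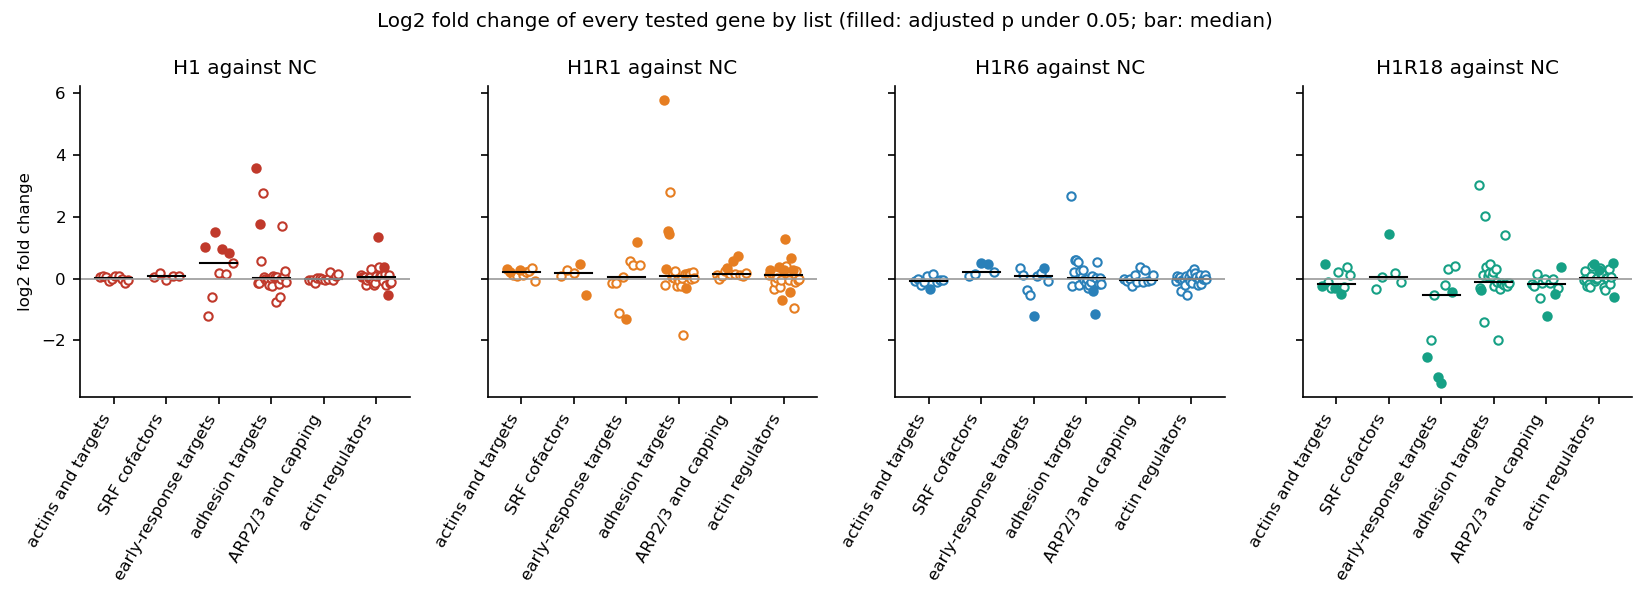
Log2 fold change against NC (vertical axis) of every tested gene of 6 lists (horizontal axis) at H1, H1R1, H1R6 and H1R18 (panels), with filled points for an adjusted p under 0.05 and the list's median as a bar. The actins and targets lie close to 0 at each time, between -0.51 and 0.47, whereas FOS lies at 1.50 at H1 and at -3.19 at H1R18, and the highest adhesion target at each time is ANKRD1, whose fitted value rests on 2 and 0 counts in NC and depends on the prior count.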

How the data were processed

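RNA-seq of 9 HEK293T libraries was analysed. The authors deposited whole-number counts per gene, made with featureCounts 2.0.2 (per the file header) after HISAT2 2.2.1 alignment of reads trimmed by cutadapt 4.1 (per the submitters' processing notes, which give GRCh38 and Ensembl release 104), without strand, with each read of a pair counted and reads of several places or genes left out. No normalisation had been applied. The notes also name DESeq2 1.38.3. Symbols came from a table of gene names.

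The filterByExpr function of edgeR, at a minimum count of 10 and a total of 15, kept 21139 genes. With TMM scaling, 1 quasi-likelihood model was fitted in edgeR 4.0.16 (R 4.3.3) to the counts of all 9 libraries, with condition as the term. Benjamini-Hochberg adjustment ran over every tested gene, and the threshold was 0.05. The SE of a log2 fold change is its size over the square root of the F statistic. DESeq2 1.42.0, other scalings and filters, a replicate block, halved counts and libraries left out were alternatives, and the order of levels with the principal transcript's length was added after the data were seen. Shared windows and exon overlap came from GENCODE 29, and promoters from RefSeq (GRCh38.p14). The fit was tested on simulated data, with changes set in genes whose average log2 CPM reached 3. Of 50 genes given a log2 fold change of 0.5 in size, 20 were called at H1, 17 at H1R1 and 16 at H1R6, and fewer at H1R18. A change of that size can thus go uncalled in genes drawn from that range. The 10 genes had an average log2 CPM of 5.31 (TPM1) to 11.5 (ACTG1), so these shares do not give theirs.

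Every gene of the 10 was named in every comparison. From each other list the 3 most abundant tested genes (by average log2 CPM) and the 3 of smallest adjusted p against NC were named, and for likeness the 5 genes with the highest correlation. Other called genes were named after their values were seen. The 10 genes and all lists were chosen with earlier results of these data known. The values of 1 paralog are not reported here.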

Additional observations from a re-analysis of the deposited data

Results flagged for a closer look

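Some of the 10 genes changed between successive times, by a test of the difference itself. At H1R1 relative to H1 the log2 fold change was 0.27 for ACTB, 0.28 for CFL1 and 0.46 for TPM1. The call of TPM1 was lost in 11 alternatives and that of CFL1 in 3. At H1R6 relative to H1R1 the log2 fold change was -0.40 for ACTB, -0.23 for ACTG1, -0.32 for ACTN1, -0.47 for FLNA and -0.36 for SRF. The call of SRF was lost in 6 alternatives and that of ACTN1 in 3. At H1R18 relative to H1R6 the log2 fold change was 0.49 for ACTG1, 0.55 for FLNA, -0.38 for CFL1 and -0.66 for PFN1, each resting on 1 H1R18 library. The rise at H1R1 and the fall at H1R6 share the H1R1 libraries.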

How the results depend on the processing

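Of 1240 values of the 10 genes under the alternatives, 1171 stayed on their side of the threshold, with the same sign or within their standard error. A call was lost in 42 and gained in 16. The sign changed in 42 values, none of them called, and 31 of these moved by less than their standard error. The other 11 were these. With library size only, PFN1 at H1R6 against H1R1 had 0.0284. With a library left out, the lowest and highest values were -0.170 and 0.0610 for ACTN4 and -0.281 and 0.0827 for TPM1 at H1 against NC, and -0.0130 and 0.217 for ACTN4 at H1R1 against NC. At H1R6 against NC they were -0.0237 and 0.0375 for ACTG1, -0.215 and 0.0207 for ACTN4, -0.173 and 0.195 for TPM1 and -0.244 and 0.0748 for SRF. For PFN1 at H1R6 against H1R1 they were -0.160 and 0.0396, and for SRF at H1R18 against H1R6 -0.309 and 0.00809. The cause was not tested.

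Of the counts of called members, that at H1R18 against NC was 4, and it was 2 with only the conditions compared and 2 to 4 with a library left out. For H1R1 against H1 it was 3, and 1 to 4 with a library left out. For H1R6 against H1R1 it was 5, 3 with library size only, and 4 to 5 with a library left out. With the replicate number as a block it was 2 for H1R1 against H1, where TPM1 was lost, and no other call among the 10 genes changed. The numbers were not taken to pair the libraries, since no source says that a number marks a shared culture or day. Differences between replicates 1 and 2 correlated by -0.036 to 0.044 between conditions. DESeq2 called fewer of all genes against NC than edgeR, with 393 higher and 157 lower after heating (726 and 374 with edgeR), 1573 and 1128 by H1R1 (2254 and 2015), 403 and 500 by H1R6 (635 and 851) and 571 and 816 by H1R18 (968 and 1359). Between successive times it called 863 and 477 for H1R1 against H1 (1343 and 1074), 740 and 1158 for H1R6 against H1R1 (1360 and 1888), and 828 and 1025 for H1R18 against H1R6 (1328 and 1618). Leaving out 1 library lowered the all-gene counts at most to 350 higher and 143 lower at H1 against NC (without H1 replicate 2), 1385 and 912 at H1R1 against NC (without H1R1 replicate 1), 272 and 309 at H1R6 against NC (without H1R6 replicate 2), 581 higher (without H1 replicate 2) and 372 lower (without H1R1 replicate 1) at H1R1 against H1, 651 higher (without H1R1 replicate 1) and 953 lower (without H1R6 replicate 1) at H1R6 against H1R1, and 760 and 1009 at H1R18 against H1R6 (without H1R6 replicate 2). Scaling to library size moved the median of all genes by at most 0.09 on the log2 scale, for H1R6 against H1R1. H1R18 has 1 library, so its values could not be checked by leaving it out.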
